A study of Callosobruchus maculatus with 24 samples.

Results

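Gene expression in the abdomen of mated female Callosobruchus maculatus was compared with that in the combined head and thorax of mated females. C. maculatus is a seed beetle whose larvae grow inside dried legumes. The libraries were chosen by their labels alone: 3 of mated female abdomens and 3 of mated female heads and thoraces, 6 of the 24 libraries of the study. All beetles were of the South India strain, and the study crossed sex, mating status (virgin or mated) and body part in 8 groups of 3 libraries. RNA was taken with RNeasy columns and sequenced from stranded libraries of polyadenylated RNA. Missing from the labels were the age of the beetles, the mating regime, the number of beetles per library and whether both body parts of a replicate came from the same beetles. Virgin females and mated males of the same strain serve below as the comparisons nearest to mated females.

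The abdomen of an adult female beetle holds the ovaries, the reproductive tract with the sperm store, most of the gut and much of the fat body, which makes yolk proteins that the ovaries take up. The head and thorax hold the brain, the eyes and antennae, the mouthparts, the front of the gut, and the muscles of legs and wings. A body part difference in such bulk RNA therefore sets groups of organs against each other, and a gene made in a single organ can differ by orders of magnitude. The genes carry assembly IDs alone, and the tables link them to neither names nor sequences. Genes are thus described by ID and by classes set in the other 18 libraries, and the labelled body parts could not be checked against known marker genes.

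The 3 abdomen libraries held 10171662, 10058376 and 9355968 counts in replicates 1, 2 and 3, and the 3 head and thorax libraries 8425885, 9165909 and 9229870. Levels are given as CPM, counts relative to the library total after scaling by TMM (trimmed mean of M values), whose factors lay between 1.13 and 1.156 in the abdomen and between 0.9612 and 0.9914 in the head and thorax. Of 29812 genes listed, 7119 had no count in any of the 6 libraries. A low-count filter over all 8 groups left 15558 genes to test, of which 349 had no count in the 6 libraries. Over the genes tested, libraries of the same body part had Spearman correlations of 0.9659 to 0.976 (6 pairs) and libraries of different body parts 0.8578 to 0.8677 (9 pairs). These correlations are across genes, which are not independent replicates. The spread between replicates, as a biological coefficient of variation, was 20.2% in the mated female abdomen and 23.3% in the head and thorax. Nothing in the labels says that the libraries of a group came from separate cultures or animals. A p-value here thus measures only spread among libraries of the same group, which may be technical. The edgeR fit estimated that spread over all 24 libraries in 8 groups, while the permutation tests used only the 6 libraries.

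A pair of libraries outside the comparison stood apart, and both entered the estimate of the spread. The 332 genes at least 8-fold higher in the abdomen of virgin females summed to 5054 CPM in virgin female head and thorax replicate 3, against 567.1 and 455.2 CPM in replicates 1 and 2. The mated female heads and thoraces showed no such library, with 537.8, 456.1 and 726.8 CPM. Virgin male head and thorax replicate 1 had 13180 genes at 1 CPM or more, against 12344 and 12510 in replicates 2 and 3. Several results that rest on these libraries are given with and without them.

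Most of the genes tested differed between the body parts of mated females. The quasi-likelihood test of edgeR, at a Benjamini-Hochberg adjusted p of 0.05 or less, called 9186 of 15558 genes (59%). Of these, 5527 were higher in the abdomen (35.5%) and 3659 were higher in the head and thorax (23.5%). Most differences were moderate, with a median absolute log2 difference of 1.08 among called genes. At least 2-fold differences were called for 4985 genes (32%), 2621 of them higher in the abdomen (16.8%) against 2364 in the head and thorax (15.2%). In bulk samples a gene can be lower because fewer cells express it or because each cell holds less of its RNA, and these cannot be told apart.

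The balance of directions depended on the scaling. With TMM the median log2 difference over all genes was 0.19, and 60.2% of called genes were higher in the abdomen. The size factors of DESeq2 moved that median by -0.16 to 0.03, and the split became 4803 higher in the abdomen against 4210 in the head and thorax (53.3%). With library size only, the median moved by 0.22 to 0.41 and the split became 6551 against 3036 (68.3%). At 2-fold or more the larger side changed with the scaling, from 52.6% of genes higher in the abdomen with TMM to 43% with DESeq2 size factors and 64.9% with library size only. At 8-fold or more the head and thorax had more genes under each of the 3 scalings: 650 against 360 with TMM, 710 against 333 with DESeq2 size factors and 557 against 413 with library size only.

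**Figure D1:**
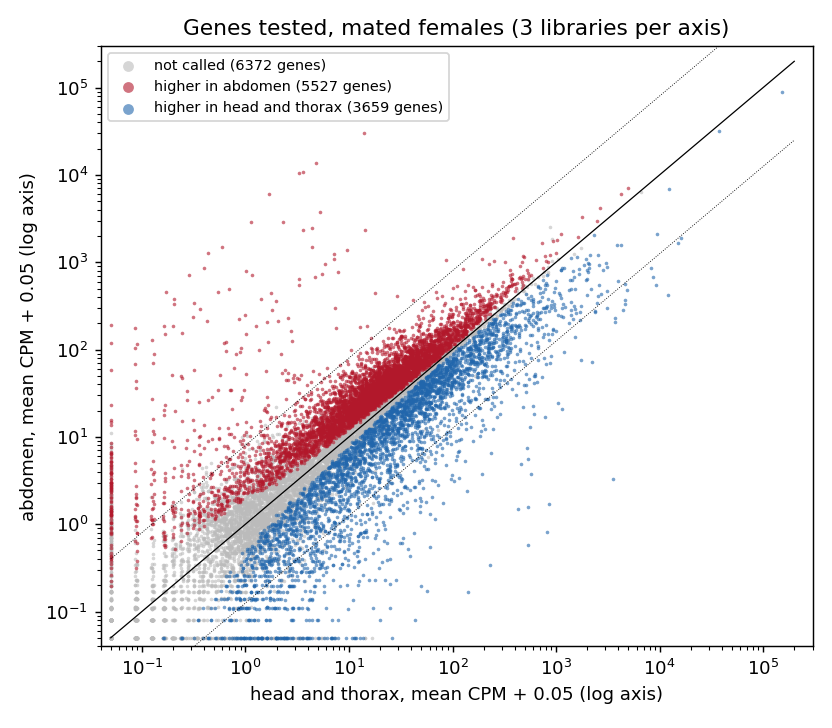
Each point is 1 of the 15558 genes tested, with its mean CPM plus 0.05 over the 3 mated female head and thorax libraries on the x axis and over the 3 abdomen libraries on the y axis, both logarithmic; the solid line marks equal levels and the dotted lines 8-fold differences. The 5527 genes higher in the abdomen lie in a narrow band above the line with a thin group far above it, and the 3659 on the side of the head and thorax spread more widely below the line.

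Large differences were fewer in number and unequal in direction. At least 8-fold differences were called for 1010 genes (6.49%), of which 360 were higher in the abdomen (2.31%) against 650 in the head and thorax (4.18%). At 64-fold or more the order was the other way, with 285 genes in all (1.83%), 165 higher in the abdomen (1.06%) against 120 in the head and thorax (0.771%). Some of these genes had no count in 1 body part, where a fitted fold is no bound. With such genes set to the bound that 3 counts per library allow (0.344 CPM in the head and thorax, 0.267 CPM in the abdomen), 310 and 591 genes remained past 8-fold, and 102 and 45 past 64-fold. The median log2 difference of the 360 abdomen genes was 5.52 as fitted and 4.16 with the bound. That of the 650 head and thorax genes was -4.06 as fitted and -3.76 with the bound.

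How often a gene was called followed its level, which sets how many counts stand behind it. Below 1 CPM over the 6 libraries, 15.9% of 2835 genes were called, and between 1 and 10 CPM 48.1% of 4889 genes. The share was 80.2% of 6415 genes between 10 and 100 CPM and 87% of 1330 genes between 100 and 1000 CPM. Among the 89 genes at 1000 CPM or more, 24 were higher in the abdomen and 59 were higher in the head and thorax (93.3% called). Their median absolute log2 difference was 1.63, against 0.74 for genes between 100 and 1000 CPM. Between 10 and 100 CPM 3612 genes were higher in the abdomen and 1530 were higher on the other side, while between 100 and 1000 CPM the numbers were 584 and 573.

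A small number of genes held much of the RNA particular to the abdomen. The genes below were chosen by the same comparison, so their shares are a description and carry no test. The 165 genes at least 64-fold higher in the abdomen made up 12.9% ± 0.733 of all abdomen counts (SD, n = 3) and 0.0150% ± 0.00566 of head and thorax counts. The genes between 8-fold and 64-fold added little, since all 360 past 8-fold held 13.5% ± 0.72 of abdomen counts and 0.0535% ± 0.0111 of head and thorax counts. The head and thorax was built differently: its 120 genes past 64-fold held 0.987% ± 0.0768 of its counts, and its 650 genes past 8-fold held 15.1% ± 0.388. Those 650 genes held 1.36% ± 0.0778 of abdomen counts.

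Counts were concentrated in fewer genes in the head and thorax than in the abdomen. The 10 most abundant genes of each library took 24.3% ± 0.158 of counts in the abdomen against 27.4% ± 0.62 in the head and thorax (SD, n = 3 each; difference -3.13 points). The 100 most abundant took 38.4% ± 0.149 and 46.6% ± 0.25, and the 1000 most abundant 65.0% ± 0.179 and 74.0% ± 0.258. The number of genes at 1 CPM or more was not lower in the head and thorax, at 12230 ± 27.6 in the abdomen against 12394 ± 107 in the head and thorax. That number used TMM scaling, whose factors were higher in the abdomen, and was not repeated with another scaling. In each of these 4 measures the groups did not overlap, and the exact two-sided permutation test gave p = 0.1, the smallest that 3 against 3 libraries allow. Without the most abundant gene, the 10 most abundant of the rest took 16.4% ± 0.66 in the abdomen against 15.5% ± 0.322 in the head and thorax (exact permutation test, p = 0.2), which turns the direction of that measure. The differences for the 100 and 1000 most abundant genes kept their direction, at -5.81 and -8.46 points.

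Single genes were named by fold among those called, with at least 3 counts in each of the 6 libraries and with CPM ranges that did not overlap. TR23777|c0_g3 stood at 6005, 6426 and 5490 CPM in abdomen replicates 1, 2 and 3 and at 2.544, 1.023 and 1.313 CPM in the heads and thoraces. All abdomens were thus far above all heads and thoraces, with a log2 difference of 11.84 (SE 1.32, edgeR adjusted p = 2.53e-07). TR24355|c0_g1 had a like pattern at 10880, 10800 and 9622 CPM in the abdomens and 4.845, 2.386 and 2.407 CPM in the heads and thoraces. Its log2 difference was 11.67 (SE 1.30, edgeR adjusted p = 2.42e-07).

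Both genes were low outside female abdomens, and the highest such level was in 1 virgin female library. In virgin female abdomens TR23777|c0_g3 stood at 4345 ± 200 CPM (SD, n = 3), and in the 4 male groups its mean lay between 1.137 and 2.392 CPM. In virgin female heads and thoraces it stood at 11.57, 2.008 and 167.2 CPM, the last in the library that also held the other abdominal transcripts. That library widened the spread of this gene in the fit: without it the log2 difference in mated females was the same 11.84 with an SE of 0.686. TR24355|c0_g1 stood at 23.14, 3.804 and 287.0 CPM in the same 3 libraries.

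On the side of the head and thorax, TR44291|c4_g1 stood at 3875, 3834 and 2975 CPM in the heads and thoraces and at 7.459, 0.8809 and 1.389 CPM in the abdomens. The abdomens were all far lower, and replicate 1 was the highest of them. The log2 difference was -10.08 (SE 1.31, edgeR adjusted p = 1.84e-06), and -11.60 without abdomen replicate 1. TR32548|c0_g1 was even within groups, at 895.8, 774.3 and 765.5 CPM in the heads and thoraces and 0.6939, 0.969 and 0.648 CPM in the abdomens. Its log2 difference was -10.01 (SE 0.154, edgeR adjusted p = 5.83e-19). Unlike the abdomen genes, both were head and thorax genes in males too: in mated males TR32548|c0_g1 stood at 2281 ± 217 CPM in the head and thorax and 2.159 ± 0.0874 CPM in the abdomen (SD, n = 3 each).

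The genes with the most counts were named next, as the 3 highest by mean CPM in each body part, which gave 4 genes. CPM is not divided by transcript length, so the order of these genes by counts is not an order by number of transcripts. TR61957|c3_g2 had the most counts in both body parts. It stood at 82920, 90490 and 94710 CPM in the abdomens and 143800, 152900 and 159600 CPM in the heads and thoraces, which did not overlap (log2 difference -0.77, SE 0.172, edgeR adjusted p = 0.000719). This gene alone took 10.2% ± 0.768 of all counts in mated female abdomens and 14.9% ± 0.872 in their heads and thoraces (SD, n = 3). In the 4 male groups its mean lay between 403.9 and 1001 CPM, so it was a female gene in both body parts.

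TR25403|c5_g2 was among the highest in the abdomen only, at 32240, 30940 and 27910 CPM against 19.02, 11.93 and 11.05 CPM in the heads and thoraces. Its log2 difference was 11.08 (SE 1.2, edgeR adjusted p = 1.62e-07), and it alone took 3.46% ± 0.218 of abdomen counts. Male abdomens held 10.23 ± 3.38 (mated) and 13.83 ± 8.17 CPM (virgin) of it (SD, n = 3). TR55288|c0_g4 was among the highest in the head and thorax, at 15730, 16690 and 15360 CPM against 1978, 1912 and 1776 CPM in the abdomens. It was thus well expressed in both, with a log2 difference of -3.08 (SE 0.105, edgeR adjusted p = 1.87e-14).

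TR36313|c1_g2 was high in both body parts, at 33160, 32410 and 30720 CPM in the abdomens and 40420, 37550 and 34270 CPM in the heads and thoraces. Its call rested on the scaling. The log2 difference was -0.22 (SE 0.07, edgeR adjusted p = 0.0105) with TMM and 0.00 (adjusted p = 1) with library size only, since the gene took 3.66% ± 0.106 of counts in the abdomen against 3.65% ± 0.286 in the head and thorax. The call also ended without abdomen replicate 3 (-0.19, edgeR adjusted p = 0.0519) or head and thorax replicate 1 (-0.17, edgeR adjusted p = 0.0669).

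**Figure D2:**
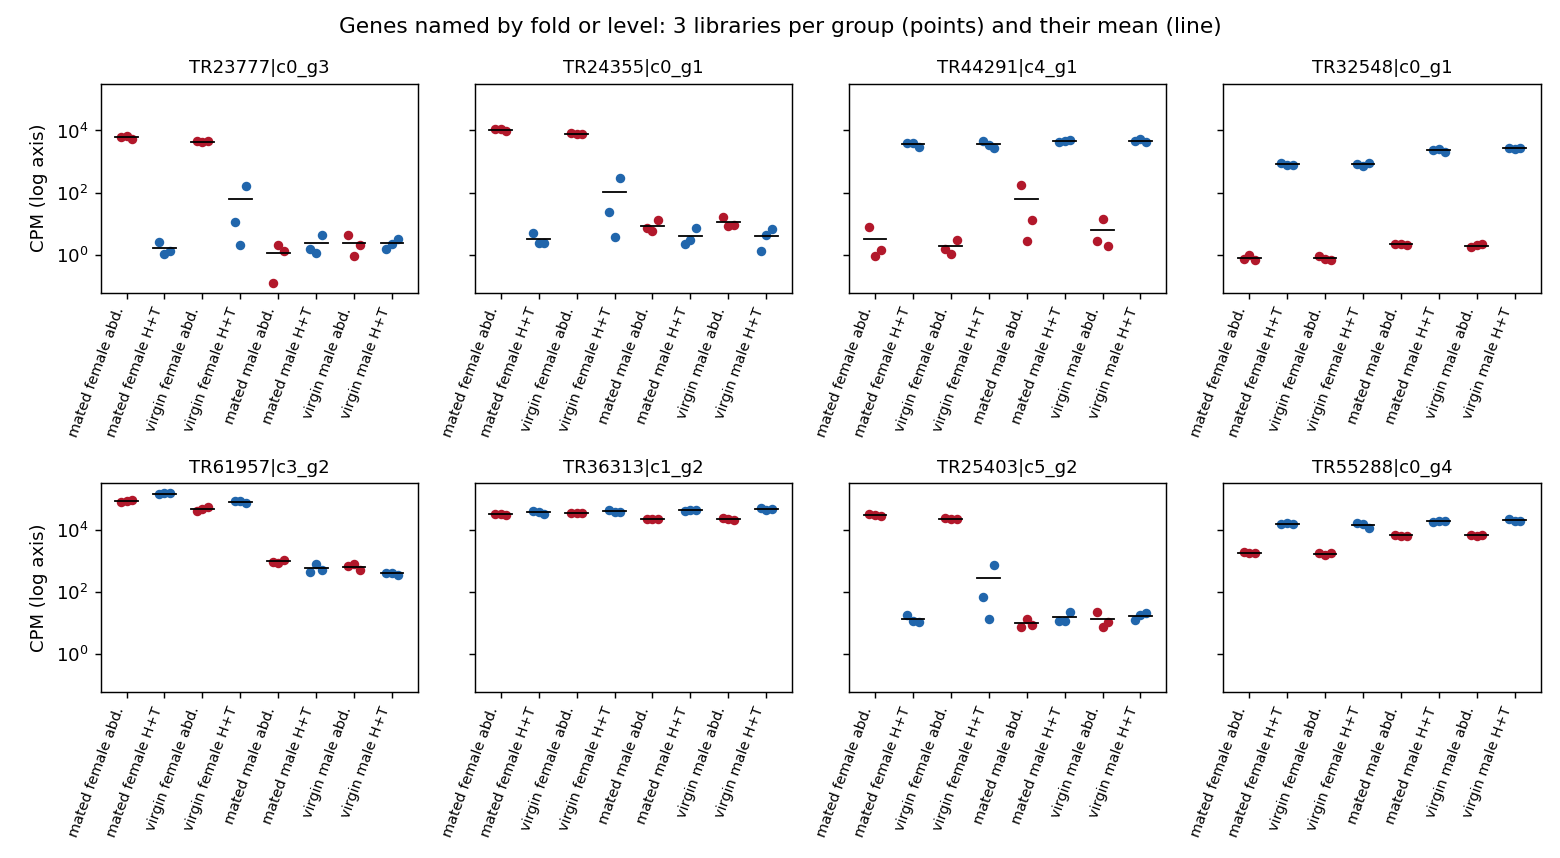
Each panel shows 1 of the 8 genes named by fold (upper row) or by level (lower row), with CPM on a logarithmic axis; points are single libraries of the 8 groups (red for abdomens, blue for heads and thoraces) and lines are means of 3. TR23777|c0_g3, TR24355|c0_g1 and TR25403|c5_g2 are high in female abdomens and low in the other groups, apart from virgin female head and thorax replicate 3, which stands at 167.2, 287.0 and 762 CPM for these genes, and replicate 1 at 11.57, 23.14 and 70.88 CPM. TR61957|c3_g2 is high in both body parts of females and at means of 403.9 to 1001 CPM in males.

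Many genes were seen in a single body part, nearly all of them at a low level. Counts were present in at least 1 abdomen library and in no head and thorax library for 2107 genes, of which 372 were tested and 8 reached a mean of 10 CPM. The reverse held for 1965 genes, of which 380 were tested and 11 reached 10 CPM. TR65855|c0_g2 was the highest of the former, at 179.6, 207.8 and 186.8 CPM in the abdomens and at 0 counts in each head and thorax. Its mean of 191.4 CPM was at least 557-fold higher than the 0.344 CPM that 3 counts per library allow. TR72625|c0_g1 was the highest of the latter, at 21.37, 28.56 and 27.37 CPM in the heads and thoraces and at 0 counts in each abdomen. Its mean of 25.77 CPM was at least 96.4-fold higher than the floor of 0.267 CPM. In virgin female heads and thoraces TR65855|c0_g2 stood at 1.717 ± 2.56 CPM (SD, n = 3).

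The body part difference of mated females was then read in classes set without the 6 mated female libraries, so that no library set a class and also gave its values. The background for each count is 35.5% higher in the abdomen and 23.5% higher in the head and thorax over all genes tested, with a median log2 difference of 0.19 (0.16 with genes without counts in a body part at their bound). No class median changed its sign with the scaling.

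Genes of the male head and thorax kept that place in mated females. Of 519 genes at least 8-fold higher in the head and thorax of males (3.34% of genes tested), 387 were called higher in the head and thorax of mated females, 19 higher in the abdomen, and 113 were not called. Their median log2 difference was -3.87 (-3.51 with the bound). Without both libraries that stand apart the class held 508 genes, of which 371 were higher in the head and thorax and 17 in the abdomen. Genes of the male abdomen were mostly not called in mated females: of 1491 genes at least 8-fold higher there (9.58% of genes tested), 241 were higher in the abdomen of mated females (16.2%), 55 were higher in the head and thorax (3.69%), and 1195 were not called. Of those 1491 genes 265 had no count in any of the 6 mated female libraries, and the median was 0. Both shares, 16.2% and 3.69%, lie below those of all genes (35.5% and 23.5%). Few counts alone make calls rare, since 15.9% of genes below 1 CPM were called. The comparison with all genes therefore cannot decide whether the class itself differs less between the body parts. The members that were called lay mostly on the side of the abdomen, and 109 genes of the class were called at least 8-fold higher there against 12 in the head and thorax. Summed over the class, levels were 11290 ± 239 CPM in the mated female abdomen and 2658 ± 205 CPM in the head and thorax (SD, n = 3).

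Classes set in virgin females kept their direction almost throughout. Of the 332 genes of the virgin female abdomen (2.13% of genes tested), 254 were higher in the abdomen of mated females and the remaining 78 were not called by edgeR, with a median of 4.66 (3.90 with the bound). Without both libraries that stand apart, the class held 434 genes, of which 349 were higher, 1 lower and 84 not called, and the median was 4.0. Of the 688 genes of the virgin female head and thorax (4.42%), 612 were higher in the head and thorax, 1 was higher in the abdomen and 75 were not called (median -3.73). Without both libraries that stand apart this class held 742 genes, with 662 higher in the head and thorax, 1 in the abdomen and 79 not called.

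Sex bias in the abdomen went along with the body part. Among 3540 genes higher in virgin female than virgin male abdomens by at least 2-fold (22.8% of genes tested), 2804 were higher in the abdomen of mated females, 93 were higher in the head and thorax and 643 were not called. The median log2 difference was 1.13. Among 4086 genes higher in virgin male abdomens (26.3%), 329 were higher in the abdomen of mated females, 1832 were higher in the head and thorax and 1925 were not called (median -0.74). Of those 4086 genes, 265 had no count in either body part of mated females. Of 3921 genes that were even between the body parts of males, with an absolute log2 difference below 0.25, 1876 were higher in the abdomen of mated females and 626 were higher in the head and thorax (median 0.40).

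Sex-limited genes had to reach a mean of 5 CPM in virgin abdomens of 1 sex while the other sex stood at 1/16 of that or less. Of 347 female-limited genes, 292 were higher in the abdomen of mated females and 4 were higher in the head and thorax, with a median of 2.43. The sum of the class was nevertheless large in both body parts, at 220900 ± 5540 CPM in the abdomen against 157400 ± 7920 CPM in the head and thorax (SD, n = 3). Most of the latter is TR61957|c3_g2, at 152100 ± 7930 CPM. Of 1016 male-limited genes, 26 were higher in the abdomen, 102 were higher in the head and thorax and 888 were not called (51, 132 and 833 without both libraries that stand apart), and their summed level was low, at 1272 ± 83.3 and 2385 ± 240 CPM.

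Genes that changed with mating in male abdomens were few. Of 256 genes higher in mated than in virgin male abdomens (1.65% of genes tested), 139 were higher in the head and thorax of mated females and 47 were higher in the abdomen (median -0.35). Of 47 genes lower in mated male abdomens (0.302%), 29 were higher in the abdomen of mated females and 7 were higher in the head and thorax (median 0.31).

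**Figure D3:**
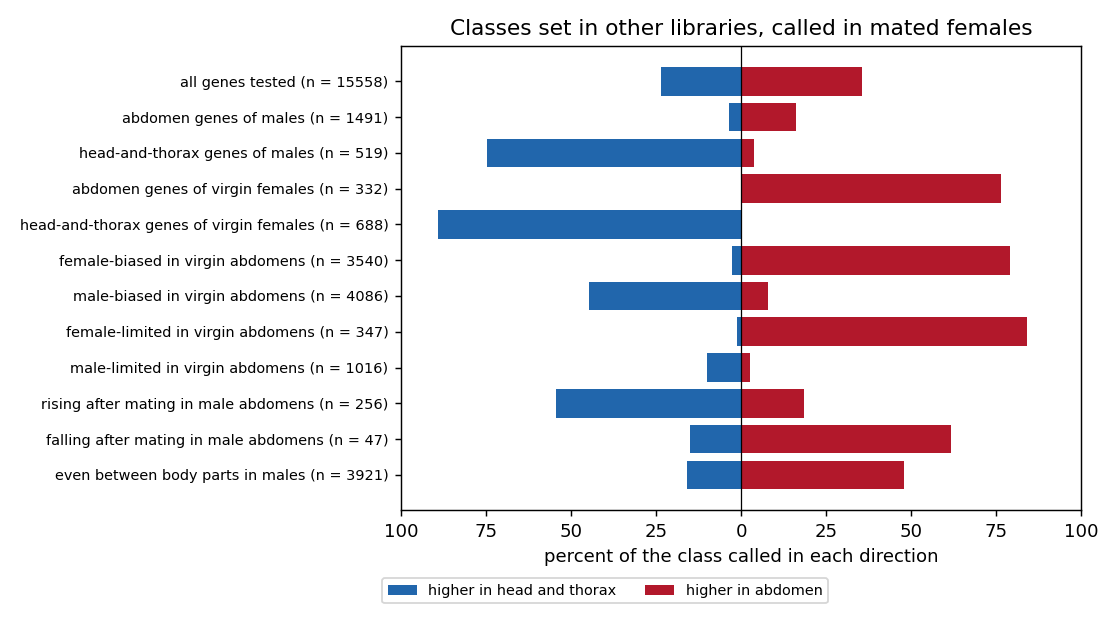
Bars give, for all 15558 genes tested and for 11 classes set without the mated female libraries, the percent of the class called higher in the head and thorax (blue, to the left) and in the abdomen (red, to the right) of mated females. Genes of the male abdomen show the shortest bars of the body part classes, with 241 of 1491 genes higher in the abdomen, while 2804 of 3540 female-biased and 292 of 347 female-limited genes were higher there.

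In virgin females many of the genes with large differences were the same, and the overlap was affected by the virgin library that stands apart. Virgin and mated females share no library. Of the 360 genes at least 8-fold higher in the abdomen of mated females, 227 were also at least 8-fold higher in virgin females, which is 63.1% of the 360 and 68.4% of the 332 of virgin females. Without virgin female head and thorax replicate 3 the overlap was 265 genes, 71.8% of 369 and 62.9% of 421. At 64-fold, where 0.791% of genes tested were called in the abdomen of virgin females, 71 of 165 genes overlapped (43%), and 115 of 166 without that replicate (69.3%). For the head and thorax, 506 of the 650 genes overlapped, 77.8% of these and 73.5% of the 688 of virgin females.

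In mated males the 2 sides behaved differently. Of the 360 abdomen genes of mated females, 97 were at least 8-fold higher in the male abdomen, which is 26.9% of the 360 and 6.62% of the 1466 such genes of males (9.42% of genes tested). Of the 650 head and thorax genes, 306 were at least 8-fold higher in the male head and thorax, 47.1% of the 650 and 68.5% of the 447 of males (2.87%). Asking only for a call in the same direction, 115 of the 360 abdomen genes were called (31.9%), against 27.8% of all genes tested. For the head and thorax genes it was 532 of 650 (81.8%), against 23.5% of all genes. The median level of the 360 genes was 8.62 CPM in the mated female abdomen, 0.827 CPM in the mated male abdomen, and 0.192 and 0.266 CPM in the heads and thoraces of mated females and males. The median level of the 650 genes was 6.84 CPM in the head and thorax of mated females, 10.3 CPM in that of mated males, and 0.324 and 1.36 CPM in the abdomens.

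**Figure D4:**
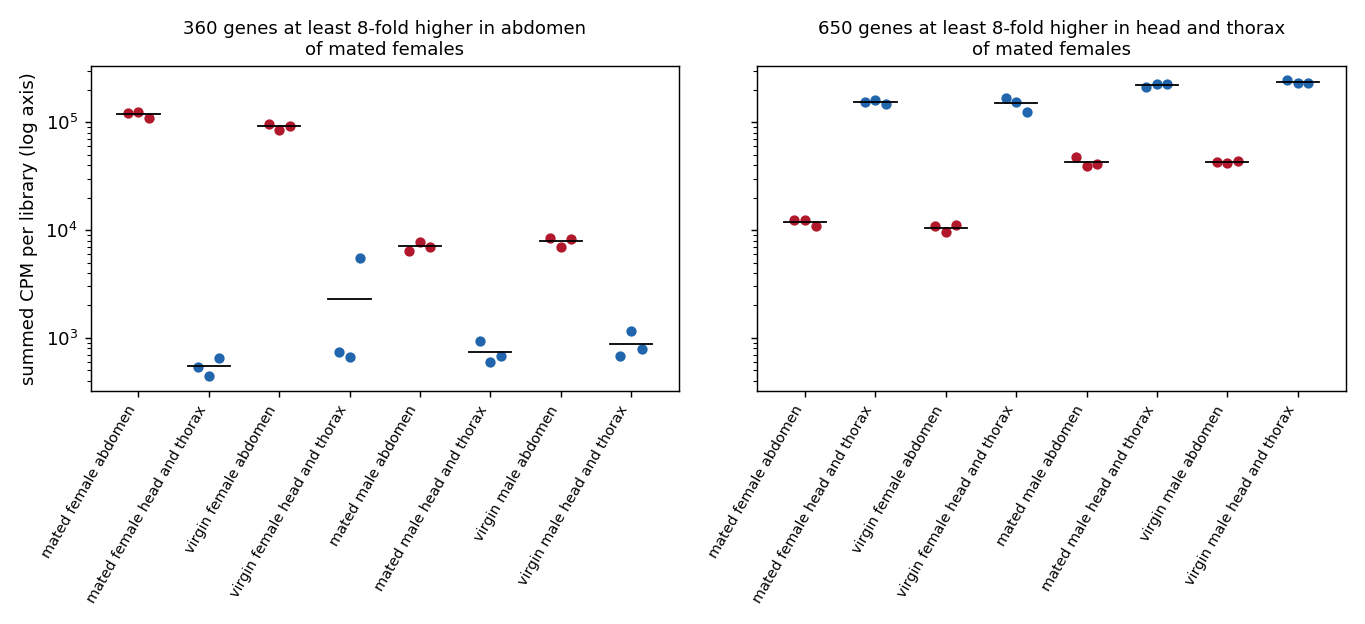
Summed CPM per library, on a logarithmic axis, of the 360 genes at least 8-fold higher in the abdomen (left) and the 650 genes at least 8-fold higher in the head and thorax (right) of mated females, in the 8 groups; points are libraries (red for abdomens, blue for heads and thoraces) and lines are means of 3. The 360 genes sum to 118900 CPM on average in mated female abdomens and 7059 CPM in mated male abdomens, and 1 virgin female head and thorax library stands at 5523 CPM. The 650 genes sum to 154900 CPM in mated female and 221700 CPM in mated male heads and thoraces.

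Whether the body part difference changed with mating was tested as an interaction over the 12 female libraries. It was called for 340 of 15558 genes (2.19%) by edgeR. The difference was more toward the abdomen in mated than in virgin females for 130 genes (0.836%) and more toward the head and thorax for 210 (1.35%). The body part difference was smaller in size in mated females for 220 of the called genes and larger for 120 (35.3%, against 41% over all genes tested). At least 2-fold interactions were called for 88 genes (0.566%) and at least 8-fold for 23 (0.148%). In 26 genes both groups were called in opposite directions, and 21 of these were higher in the head and thorax of mated females and in the abdomen of virgin females. Without virgin female head and thorax replicate 3, 440 genes were called, 177 toward the abdomen and 263 toward the head and thorax, of which 264 were shared with the 340. Interactions of at least 8-fold then fell from 23 to 9 genes. Leaving out any 1 mated female library lowered the count of 340 to between 93 (abdomen replicate 2) and 196 (abdomen replicate 1), and it was 184 and 141 without virgin female abdomen replicate 2 or 3. It was 141 with the replicate number as a block in a fit of the 12 female libraries alone, 207 without a low-count filter and 855 with DESeq2.

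The 2 most positive interactions among genes with at least 3 counts in each of the 12 libraries rested on that replicate. TR41216|c5_g4 stood at 2870, 3217 and 2489 CPM in mated female abdomens and 5.814, 0.3409 and 0.547 CPM in their heads and thoraces. In virgin females it stood at 2284, 1526 and 3051 CPM in the abdomens and 9.377, 10.57 and 261.4 CPM in the heads and thoraces, so that 1 of the latter was far above the others. The interaction was 5.75 on the log2 scale (SE 1.36, edgeR adjusted p = 0.0338), and 2.52 without the replicate at 261.4 CPM (edgeR adjusted p = 0.0722). It was 8.0 without mated female head and thorax replicate 1, the library at 5.814 CPM (edgeR adjusted p = 0.0303). TR23777|c0_g3, named above by fold, had an interaction of 5.67 (SE 1.38, edgeR adjusted p = 0.038), and of 2.51 without that replicate (edgeR adjusted p = 0.106). The calls of both genes also ended when any mated or virgin female abdomen library, or mated female head and thorax replicate 2 or 3, was left out (edgeR adjusted p 0.0576 to 0.107).

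The 2 most negative interactions belonged to genes of low level and were of similar size without that replicate. TR73940|c0_g1 was higher in the heads and thoraces of mated females, at 8.492, 10.51 and 10.77 CPM, than in their abdomens, at 5.253, 5.996 and 5.557 CPM. Virgin females showed the reverse order, with 7.961 ± 0.536 CPM in the abdomen against 4.307 ± 1.00 CPM in the head and thorax (SD, n = 3 each). The interaction was -1.69 (SE 0.383, edgeR adjusted p = 0.0272) and -1.69 without the replicate (edgeR adjusted p = 0.0377). TR54087|c3_g1 stood at 4.791 ± 0.771 against 2.922 ± 0.636 CPM in mated and 11.31 ± 1.64 against 2.336 ± 0.724 CPM in virgin females. Its interaction was -1.55 (SE 0.363, edgeR adjusted p = 0.031), and -1.42 without the replicate (edgeR adjusted p = 0.0571).

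The classes set in males only are read against the 0.836% of all genes called toward the abdomen and the 1.35% called toward the head and thorax. Among the 1491 genes of the male abdomen 4 were called, each toward the head and thorax. Of these 1491 genes, 265 had no count in either body part of mated females, and 299 had none in 1 of them. Genes with so few counts are seldom called, so the low number of calls is no result about this class. Among the 519 genes of the male head and thorax 3 were called toward the abdomen and 1 toward the head and thorax, below the shares of all genes. Of these 519 genes 73 had no count in 1 body part of mated females, and counts of calls this small are no result about the class. Among the 256 genes that rose with mating in male abdomens, 5 were called toward the abdomen and 15 toward the head and thorax of mated females, both above the shares of all genes. Among the 3921 genes even between the body parts of males, 41 and 67 were called, shares near those of all genes and thus no result about this class. Among the 47 genes that fell with mating in male abdomens 2 were called, each toward the abdomen.

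Mated females and mated males differed far more in their body part differences. The interaction with sex was called for 7057 of 15558 genes (45.4%) by edgeR, 3925 more toward the abdomen in females (25.2%) and 3132 more toward the abdomen in males (20.1%). With DESeq2 size factors the split was 3010 and 3874, and with library size only 5000 and 2439, so the larger side depended on the scaling. Interactions of at least 2-fold were called for 3696 genes (23.8%) and of at least 8-fold for 1038 (6.67%). The body part difference was larger in females for 4471 of the called genes (63.4%, against 57.7% of all genes). In 1019 genes both sexes were called in opposite directions. Of these, 689 were higher in the abdomen of females and in the head and thorax of males, and 330 the reverse.

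These interactions followed the sex bias of virgin abdomens. Of 3540 female-biased genes 2290 were called more toward the abdomen in mated females and 47 more in mated males. Of 4086 male-biased genes the numbers were 12 and 2219. Among sex-limited genes, 170 of 347 female-limited genes were called toward the abdomen of females and 5 toward that of males, and 2 and 577 of the 1016 male-limited genes.

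The 2 most positive interactions with sex were again genes of the female abdomen. TR25775|c0_g2 stood at 11380, 11390 and 9273 CPM in mated female abdomens and 6.177, 2.386 and 1.969 CPM in their heads and thoraces, and at 2.04, 4.241 and 2.847 CPM in mated male abdomens. TR44677|c1_g2 stood at 14400, 14660 and 12350 CPM in mated female abdomens and 7.267, 3.181 and 3.938 CPM in their heads and thoraces, and at 1.56, 4.864 and 3.364 CPM in mated male abdomens. Their interactions were 12.14 (SE 1.59, edgeR adjusted p = 5.49e-06) and 12.07 (SE 1.65, edgeR adjusted p = 9.34e-06).

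The 2 most negative were genes of the male abdomen that stood near the floor in mated females. TR39199|c0_g1 stood at 0.6939, 0.7047 and 0.648 CPM in mated female abdomens and 1.332, 8.862 and 2.407 CPM in their heads and thoraces, against 5493 ± 170 CPM in mated male abdomens (SD, n = 3). TR64881|c2_g2 stood at 0.2602, 0.2643 and 0.3703 CPM in mated female abdomens and 0.7267, 4.658 and 0.6564 CPM in their heads and thoraces, against 2843 ± 210 CPM in mated male abdomens. For both, head and thorax replicate 2 was the highest mated female library. Their interactions were -13.40 (SE 0.911, edgeR adjusted p = 2.26e-09) and -13.39 (SE 0.972, edgeR adjusted p = 4.68e-09). Without head and thorax replicate 2 that of TR39199|c0_g1 was -12.29 and that of TR64881|c2_g2 was -11.9. The latter was -14.21 without mated male head and thorax replicate 2.

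The transcript table gave a further readout of the same libraries: how a gene's counts divide among its transcripts. Of 6341 genes with at least 2 transcripts tested, 285 differed in transcript usage between the body parts of mated females (4.49%; diffSpliceDGE of edgeR, adjusted p of the Simes test at 0.05 or less). The most abundant transcript differed between the body parts in 1413 of 6246 genes with counts in both, and 109 of these were called. Among called genes the largest change in a transcript's share had a median of 24.6 percentage points, and it reached 25 points in 139 genes and 50 points in 40. At the level of the whole gene, 87.4% of the called genes were also called between the body parts, against 74.4% of the 6246 genes, which left 36 called in usage alone.

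The largest changes were named among called genes with at least 10 CPM in both body parts. TR7953|c1_g3 was one whose total did not pass the test (log2 difference 0.22, SE 0.114, edgeR adjusted p = 0.107). Its transcript i1 took 95.8%, 94.0% and 93.3% of the gene's counts in the abdomens and 4.2%, 3.77% and 12.2% in the heads and thoraces. Its transcript i3 took 0% in each abdomen and 49.4%, 96.2% and 62.8% in the heads and thoraces. The groups thus did not overlap for either transcript, although the heads and thoraces differed widely among themselves. Usage over the whole gene had an adjusted p of 8.76e-05 (Simes test of edgeR). In male abdomens i1 took 100% in each of the 6 libraries.

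TR34698|c1_g2 changed in both its level (log2 difference 2.30, SE 0.0754, edgeR adjusted p = 1.13e-14) and its transcripts. Its transcript i3 took 84.3%, 84.7% and 84.9% in the abdomens and 1.52%, 1.29% and 5.47% in the heads and thoraces. Usage over the whole gene had an adjusted p of 4.32e-14 (Simes test of edgeR). Its transcript i4 took 12.7%, 12.5% and 11.4% in the abdomens and 75.3%, 87.0% and 79.8% in the heads and thoraces. In virgin female abdomens i3 took 81.5% ± 0.0363, while it took 0.378% ± 0.227 in mated and 0.642% ± 0.193 in virgin male abdomens (SD, n = 3). The transcripts of this gene do not sum to the gene's own count, so its shares depend on how the reads were split.

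**Figure D5:**
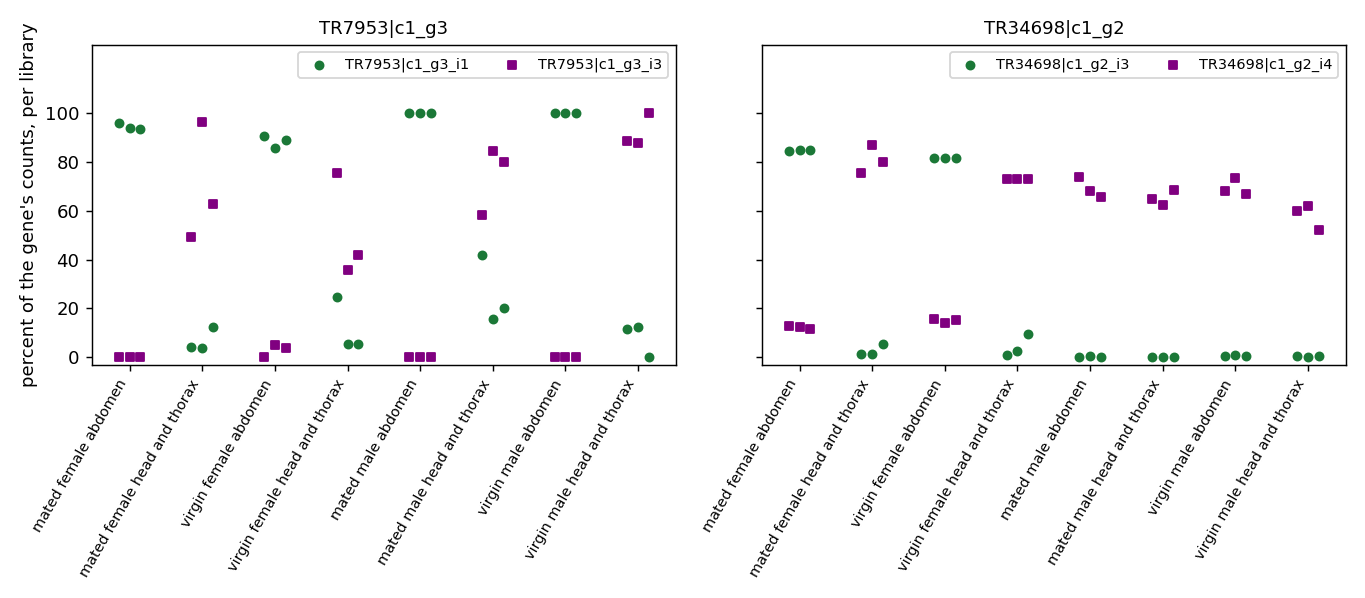
Percent of the gene's counts in 2 transcripts of TR7953|c1_g3 (left) and of TR34698|c1_g2 (right) in each library of the 8 groups. In TR7953|c1_g3 the order of i1 and i3 differs between abdomens and heads and thoraces in each of the 8 groups' libraries shown, while in TR34698|c1_g2 transcript i3 is high in female abdomens only, at 84.3% to 84.9% in mated females and below 1% in males.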

How the data were processed

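The deposited tables hold expected counts per gene and per transcript, 1 column per library with both lanes together, not normalized by the authors, and 14.1% of the values in the gene table have decimals. Bowtie 0.12.6, Trimmomatic 0.3, cutadapt 1.2.1 and FastQC 0.11.2 are the upstream tools per the submitters' processing notes. The counting program, reference and use of strand were not given in the sources used here, so genes with near-identical copies or overlaps are uncertain. Counts were rounded and fitted with edgeR 4.0.16 in R 4.3.3 (TMM, filterByExpr by group, robust quasi-likelihood test, 24 libraries, 8 group means), with Benjamini-Hochberg adjustment over 15558 genes and a threshold of 0.05. Standard errors are the absolute log2 difference divided by the square root of F. Transcript usage was tested with diffSpliceDGE, and single values per library with exact permutation tests. Simulated counts with 200 changed genes were used to check the fits. IDs were named by a rule: the largest differences in each direction with at least 3 counts in every library (without overlap, for the body part difference), the highest CPM, and the highest CPM among genes of a single body part. Members, classes and lists were chosen with earlier results of these data known. Alternatives were other scalings and filters, DESeq2 1.42.0, limma-voom (limma 3.58.1), a fit without robust estimation, smaller fits, a replicate block, the transcript table, and leaving out libraries. Floors cover counting error only, while SDs and standard errors include the spread between libraries. At 9355968 counts, a gene at 1 CPM rests on about 10 counts.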

Additional observations from a re-analysis of the deposited data

Results flagged for a closer look

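A pair of tests of differences between groups made calls. The body part difference differed between mated and virgin females for 340 genes. Among these, TR41216|c5_g4 (log2 interaction 5.75) and TR23777|c0_g3 (5.67) were named as the most positive and TR73940|c0_g1 (-1.69) and TR54087|c3_g1 (-1.55) as the most negative. Virgin female head and thorax replicate 3 held 261.4 CPM of the first and 167.2 CPM of TR23777|c0_g3, and without it both calls ended, as did that of TR54087|c3_g1. Of the 332 genes at least 8-fold higher in the abdomen of virgin females, the 20 most abundant there were also read. In that library they stood at a median of 3.64% of their mean in virgin female abdomens. The other replicates of its group had 0.311% and 0.202%. Mated female heads and thoraces had 0.163%, 0.0487% and 0.0436% of the mean in mated female abdomens. The 332 genes were chosen as low in virgin female heads and thoraces, so low shares there were partly set by that choice. Without virgin female head and thorax replicate 3, 440 genes were called, 264 of them among the 340, and interactions of at least 8-fold fell from 23 to 9.

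The body part difference differed between mated females and mated males for 7057 genes, with TR25775|c0_g2 (log2 interaction 12.14) and TR44677|c1_g2 (12.07) as the most positive and TR39199|c0_g1 (-13.40) and TR64881|c2_g2 (-13.39) as the most negative. The calls of TR39199|c0_g1 and TR64881|c2_g2 held under each of 23 alternatives, and those of TR25775|c0_g2 and TR44677|c1_g2 under the 22 that gave a value, since DESeq2 gave no adjusted p for them.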

How the results depend on the processing

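The count of genes called between the body parts lay within 1.5 times its reported value under each of 18 alternatives (8190 to 9587; 8587 to 8710 with 1 mated female library left out; 8190 with the replicate block), as did that of the interaction with sex under 23 (6289 to 7621; 6909 with the block). The mating interaction, at 340 genes, was the least stable count: 207 without a low-count filter, 855 with DESeq2, 141 with the replicate block, 515 without both libraries that stand apart, and 93 to 440 with 1 library left out. The calls of its 4 named genes ended in 14, 15, 9 and 12 of 23 alternatives. Transcript usage was called for 285 genes, and for 162 in a fit of only genes whose transcripts sum to the gene count. That set is smaller, with 4079 of the 6246 genes with counts in both body parts. In the main fit 4% of the 4079 were called, against 4.56% of the 6246. The count of usage calls was 196 to 218 with 1 library left out and 229 with the block. The block was fitted only to the libraries of each comparison, so its counts also reflect a smaller fit. Deviations from the group means correlated at 0.0242, -0.0205 and 0.0294 between body parts with the same replicate number (1, 2 and 3). Unlike numbers gave -0.044 to 0.0207, so whether the numbers pair the samples cannot be told.

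With library size only, class medians moved to -3.71 (male head and thorax), 4.37 (virgin female abdomen), 1.2 (female-biased), -0.61 (male-biased), 2.57 (female-limited), -0.031 (male-limited), -0.22 (rising in males), 0.48 (falling) and 0.60 (even), with classes rebuilt on that scale. With body part classes at 4-fold the medians were 0.19 (male abdomen), -3.17 (male head and thorax), 2.39 and -2.81 (virgin female abdomen, head and thorax), and at 16-fold -4.69 (male head and thorax), 6.22 and -4.48. Without both libraries that stand apart they were 4.0 (virgin female abdomen), 0.58 (falling) and 0.36 (even). With genes without counts at their bound, 102 and 45 genes passed 64-fold. Without the most abundant gene the differences in the 10, 100 and 1000 most abundant were 0.949 (reversed), -5.81 and -8.46 points. TR36313|c1_g2 went to 0.00 with library size only. Over the named genes, 308 of 361 alternative values kept direction and call, 52 kept direction only and 1 reversed; the cause was not tested.

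Depth limits genes below 1 CPM, of which 15.9% were called.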

Other observations

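Male-limited genes mostly stood at a low level in mated females. Of the 1016 genes, 300 had no count in mated female abdomens and 230 none in their heads and thoraces, and 161 and 194 reached a mean of 1 CPM. Genes with so few counts are seldom called, so low shares called in this class are no result by themselves. The 102 genes called higher in the head and thorax of mated females were 10% of the class, against 23.5% of all genes tested. They held 66.5% of the class's summed CPM there, but were chosen by that same comparison, so this share carries no test. Their median level was 4.34 CPM in the mated female head and thorax and 0.745 CPM in the abdomen, against 10.7 CPM in the head and thorax and 76.1 CPM in the abdomen of mated males. The 26 genes called higher in the abdomen of mated females were 2.56% of the class, against 35.5% of all genes tested. Their median level was 3.24 CPM in the mated female abdomen, 0.667 CPM in the head and thorax, 1.40 CPM in virgin female abdomens and 95.1 CPM in mated male abdomens.

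Without virgin female head and thorax replicate 3, the most positive mating interaction under the same rule was that of TR35703|c0_g2, a gene chosen after its values were seen. It stood at 26.37, 14.80 and 16.39 CPM in mated female abdomens and at 1.575, 2.045 and 1.094 CPM in their heads and thoraces. Virgin female abdomens held 2.437, 4.531 and 2.982 CPM, all below the mated abdomens. The interaction was 3.00 on the log2 scale (edgeR adjusted p = 0.0417), and 2.90 with that replicate (edgeR adjusted p = 0.0386).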
